A study of Homo sapiens with 12 samples.

Results

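Metallothioneins and the genes of zinc export were followed in HepG2 cells, a human hepatoma line, as 8 genes chosen by name: 6 metallothioneins (MT1E, MT1F, MT1G, MT1M, MT1X and MT2A), the zinc sensor MTF1 and the zinc exporter SLC30A1. Of these 8, 7 were measured among the 13511 genes of the count table, and MT1M was not analysed here. The 12 libraries were made from poly(A)-selected RNA and form 4 groups of 3. The first group (A-485 and Dox) had 1 h of pretreatment with A-485, an inhibitor of the acetyltransferases CBP and p300, at 5 µM and then 24 h of the same inhibitor together with 30 µg/ml doxycycline. The second (A-485) had the inhibitor alone for the same times. The third (Dox) had the solvent DMSO in place of the inhibitor and the same doxycycline, an antibiotic that also blocks mitochondrial ribosomes. The fourth (DMSO) had the solvent alone. All cells were labelled wild type and grown in high-glucose medium with serum and no other antibiotic. Whether replicates were grown as separate cultures is not stated in the labels, and p-values here therefore describe the spread among libraries, part or all of which may be technical.

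Metallothioneins are small cysteine-rich proteins that bind zinc, copper and cadmium, and their human genes lie in a row on chromosome 16. Free zinc activates MTF1, a zinc-finger transcription factor that binds short metal response elements in metallothionein promoters and in the promoter of SLC30A1. SLC30A1 encodes ZnT1, which moves zinc out of the cell through the plasma membrane. In mouse cells MTF1 has been found in a zinc-dependent complex with p300 and CBP, the enzymes that A-485 inhibits. In liver, metallothionein transcripts also respond to glucocorticoids and inflammation.

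All positions are from GENCODE 29 on GRCh38. On chromosome 16 the measured metallothioneins start with MT2A (ENSG00000125148, 56608199 to 56609497, plus strand) and go on with MT1E (ENSG00000169715, 56625475 to 56627112, plus) and MT1F (ENSG00000198417, 56657694 to 56660698, plus). They end with MT1G (ENSG00000125144, 56666731 to 56668065, minus) and MT1X (ENSG00000187193, 56682424 to 56684196, plus). MTF1 (ENSG00000188786, 37809567 to 37859620, minus) and SLC30A1 (ENSG00000170385, 211571568 to 211578742, minus) lie on chromosome 1.

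The promoters of MT2A and MT1X are shown because both genes rose with A-485 and both carry the core of the metal response element. Each is the 250 bases before the RefSeq start of the gene (build GRCh38.p14), on the gene's own strand, and capitals mark the matches to TGCACNC or TGCGCNC on either strand. No matches overlapped in these windows.
MT2A (chr16:56608334-56608583, plus strand): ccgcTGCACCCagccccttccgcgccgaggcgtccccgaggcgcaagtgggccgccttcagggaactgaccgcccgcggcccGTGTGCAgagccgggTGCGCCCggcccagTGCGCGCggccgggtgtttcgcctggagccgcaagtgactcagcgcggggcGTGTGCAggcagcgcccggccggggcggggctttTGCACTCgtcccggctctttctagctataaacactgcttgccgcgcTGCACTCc
MT1X (chr16:56682220-56682469, plus strand): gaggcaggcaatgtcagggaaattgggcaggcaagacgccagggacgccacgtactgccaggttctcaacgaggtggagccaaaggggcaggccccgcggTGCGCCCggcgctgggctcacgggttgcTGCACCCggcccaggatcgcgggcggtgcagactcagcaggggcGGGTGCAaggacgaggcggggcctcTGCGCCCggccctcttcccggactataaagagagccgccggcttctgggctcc
The MT2A window held 7 matches, and 0.0313% of the 35116 RefSeq windows of the same length held 7 or more. The MT1X window held 4, against 0.37% of windows with 4 or more. The SLC30A1 window held 1, a number reached by 24.8% of windows, and the MTF1 window held 0. These matches are letters in a window and no measurement of binding. Whether their number goes with the change under A-485 was not tested, and the 2 windows shown were picked by both traits. Sequences for 4 of the 7 measured genes were found by symbol, and the other 3 are MT1E, MT1F and MT1G. The MT2A window lies inside the gene as GENCODE 29 draws it, since that gene span begins upstream of the RefSeq start. The MT1X and MTF1 windows run partly into their GENCODE genes. The SLC30A1 window (211579162 to 211579411, minus strand) lies wholly upstream of the GENCODE gene, whose span ends at 211578742, and does not adjoin it. The counts of matches are thus for windows placed differently relative to the GENCODE genes.

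Dox replicate 1 stood apart from the other 11 libraries before any gene was considered. Compared with replicates 2 and 3 by chi-square, its counts gave 866 and 884 per degree of freedom, and all other pairs within a group gave 1.31 to 3.76. The biological coefficient of variation was 20.7% with it and 1.52% without it. Its deviations from the other Dox libraries depended on gene length, with a median of 1.13 on the log2 scale for the shortest of 10 length bins. The metallothioneins are short, with 750 to 1889 bases of exon, and in this library they lay 1.73 (MT2A) to 2.07 (MT1E) above the mean of Dox replicates 2 and 3 on that scale. The length bin of MT1F had a median of 0.74. SLC30A1, with 5474 bases, lay at -1.44, far below the median of -0.11 of its bin. MTF1, with 8024 bases, lay at -0.50, the median of its bin. Spread within bins was wide, with 5th to 95th percentiles of -1.7 to 2.44 in the shortest bin and -1.58 to 1.37 in that of SLC30A1. The part of Dox replicate 1 in the doxycycline results was not tested apart from leaving it out. The members' fold changes that involve Dox libraries are given with all 12 libraries and without it. In comparisons of groups that do not hold this library, the SE of each of the 7 genes was smaller when it was left out. Values of other genes are from all 12 libraries unless stated. Each library held 46600324 to 51773300 counts in genes. All 7 hepatocyte markers were measured (ALB, AFP, APOA1, APOB, TTR, SERPINA1 and TF), and their summed level was 20570 to 20860 CPM in A-485 and Dox, 22340 to 22590 in A-485, 51700 to 63750 in Dox and 63750 to 64300 in DMSO. Of 9 markers of endothelial, blood and stromal cells 5 were measured, with a summed level of 14.49 to 14.92 CPM in A-485 and Dox, 15.64 to 16.92 in A-485, 14.24 to 17.86 in Dox and 14.12 to 15.46 in DMSO. Single markers among these 5 moved in opposite directions in A-485 against DMSO: TIE1 had 2.61 ± 0.163 CPM in A-485 and 0.291 ± 0.0737 in DMSO, PECAM1 9.58 ± 0.474 and 5.66 ± 0.107, and PDGFRB 0.749 ± 0.137 and 5.51 ± 0.308 in the same order (SD, n = 3 each). ERG, PTPRC, COL1A1 and DCN were not analysed here. The part of these marker levels in the results below was not tested. HepG2 is a single line, and in bulk RNA a change in some of its cells and a smaller change in all of them cannot be told apart.

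**Figure D1:**
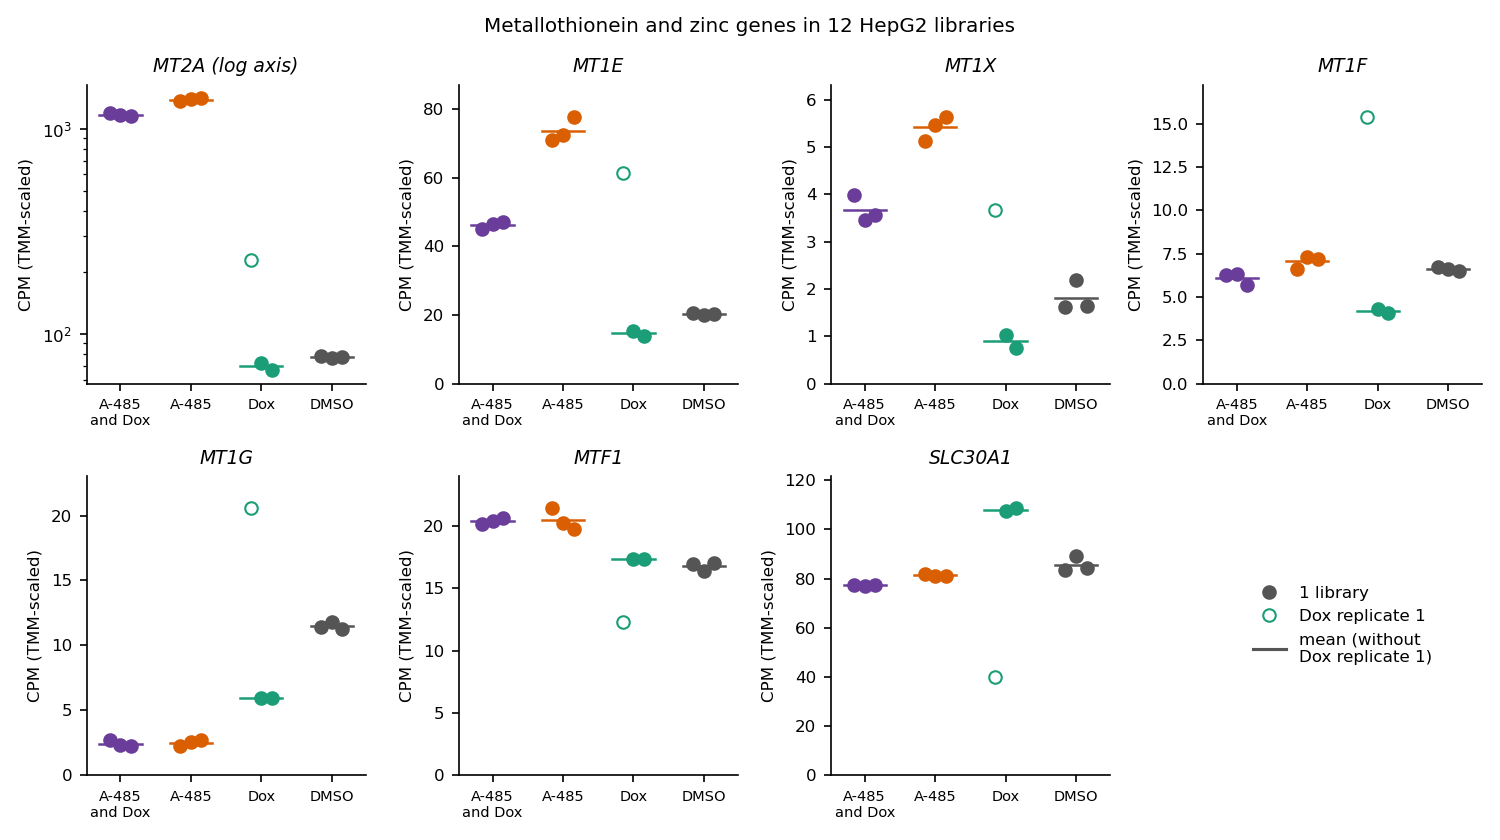
Level of each of the 7 measured genes in all 12 libraries, in CPM (counts scaled to library size), by group from A-485 and Dox to DMSO, with a log axis for MT2A and axes from 0 for the others. Filled points are single libraries, open points are Dox replicate 1, and lines are group means without that library. MT2A lies at 1158 CPM or more in all 6 libraries with A-485 and at 230.7 CPM or less in the 6 without it.

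In A-485 cells, MT2A, MT1E and MT1X were higher and MT1G was lower than in DMSO cells. MT1F and SLC30A1 had log2 fold changes of 0.10 and -0.07. MT2A, the most abundant metallothionein here, was 18.0-fold higher. Of the 7 genes, 3 rose, 1 fell and 3 did not pass the test (edgeR quasi-likelihood test, adjusted p under 0.05 over all genes), where 53.3% of all genes were called, 26.3% higher and 27.1% lower. Without Dox replicate 1, 4 members rose and 2 fell, against 46.6% of all genes higher, 43.7% lower and 90.3% called in all. The share of members called is thus near that of all genes in both fits. How many of all genes had groups without overlap was not counted for this comparison. Lack of overlap, given below, therefore describes single genes and does not set the members apart. The median log2 fold change of the 5 metallothioneins was 1.58, and that of all genes 0.04.

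MT2A had 1362, 1393 and 1414 CPM (gene counts scaled to a common library size, with library totals adjusted by TMM, the trimmed mean of M-values) in the A-485 libraries, against 77.84, 76.46 and 76.92 CPM in DMSO. All A-485 libraries lay far above all DMSO libraries, with totals over the 3 libraries of 240830 counts in A-485 and 10100 in DMSO. The log2 fold change was 4.17 ± 0.44 (SE, edgeR adjusted p = 2.7e-05), and 4.17 ± 0.02 without Dox replicate 1, at rank 24 of 13511 genes from the highest. By TPM, which divides counts by exonic length before scaling, MT2A was at rank 21 in each A-485 library and at ranks 656 to 668 in DMSO.

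MT1E, the second most abundant metallothionein, had 70.88, 72.31 and 77.78 CPM in A-485 and 20.60, 19.90 and 20.33 CPM in DMSO. The groups did not overlap, and the log2 fold change was 1.86 ± 0.48 (edgeR adjusted p = 0.0084) and 1.86 ± 0.04 without Dox replicate 1. MT1X, the lowest measured metallothionein in DMSO, had 5.138, 5.476 and 5.648 CPM in A-485 and 1.617, 2.198 and 1.633 CPM in DMSO. Its groups did not overlap either, with a log2 fold change of 1.58 ± 0.46 (edgeR adjusted p = 0.016) and 1.58 ± 0.10 without Dox replicate 1. Its totals were 939 counts in A-485 and 237 in DMSO, and its adjusted p became 0.057 when DMSO replicate 1 or 3 was left out.

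MT1G went the other way. It had 2.259, 2.559 and 2.665 CPM in A-485, against 11.44, 11.78 and 11.24 CPM in DMSO, and no A-485 library reached any DMSO library. The log2 fold change was -2.20 ± 0.44 (edgeR adjusted p = 0.0018) and -2.20 ± 0.08 without Dox replicate 1. MT1F, between MT1E and MT1G on the chromosome, had 6.638, 7.335 and 7.218 CPM in A-485 and 6.703, 6.618 and 6.490 CPM in DMSO. These groups overlapped, and the log2 fold change was 0.10 ± 0.42 (edgeR adjusted p = 0.86; 0.17 without Dox replicate 1).

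MTF1, which encodes the zinc-sensing activator, had 21.45, 20.28 and 19.77 CPM in A-485 and 16.95, 16.37 and 17.02 CPM in DMSO. Its groups did not overlap, but the log2 fold change of 0.29 ± 0.12 missed the threshold with all 12 libraries (edgeR adjusted p = 0.066) and passed it without Dox replicate 1 at 0.29 ± 0.04 (edgeR adjusted p = 1.8e-08). SLC30A1, the exporter, had 82.01, 81.03 and 80.90 CPM in A-485 and 83.44, 89.00 and 84.27 CPM in DMSO. Its log2 fold change was -0.07 ± 0.29 (edgeR adjusted p = 0.85) and -0.07 ± 0.02 without Dox replicate 1 (adjusted p = 0.0042), and the sign flipped to 0.28 when libraries were scaled by their totals alone. With that scaling the median over all genes was 0.39 in place of 0.04, so values of this size are read relative to it.

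**Figure D2:**
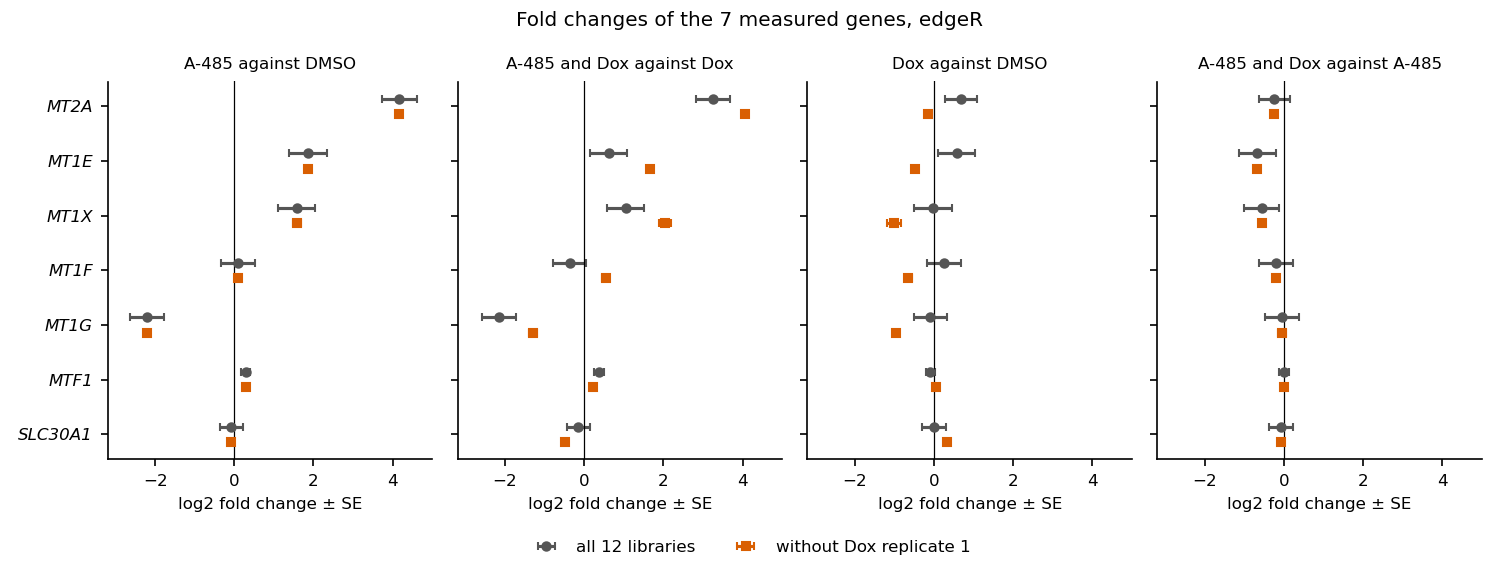
Log2 fold change of each of the 7 genes in 4 comparisons, with bars of 1 SE, from all 12 libraries and without Dox replicate 1. MT2A lies near 4 and MT1G near -2 for A-485 against DMSO in both fits, while the values for Dox against DMSO move with that library.

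The metallothionein transcripts together took 0.139 to 0.143% of gene counts in A-485 and Dox and 0.166 to 0.173% in A-485. They took 0.00865 to 0.0229% in Dox, the highest being replicate 1, and 0.0105 to 0.0106% in DMSO. MT2A made up 95.2 to 95.4% of the counts of the 5 genes in A-485 and Dox, 93.8 to 94.1% in A-485, 69.5 to 73.2% in Dox and 65.4 to 66.0% in DMSO. In DMSO the order by TPM was MT2A (185 ± 0.897, SD, n = 3), MT1E (59.9), SLC30A1 (48.6), MT1G (47.6), MT1F (10.9), MTF1 (6.50) and MT1X (3.19), and the libraries of SLC30A1 and MT1G overlapped. In A-485 it was MT2A (4413 ± 42.6, SD, n = 3), MT1E (289), SLC30A1 (61.3), MT1F (15.4), MT1G (13.7), MT1X (12.6) and MTF1 (10.5). There the libraries of MT1G and MT1X overlapped.

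With doxycycline present in both groups, the inhibitor again went with more MT2A and less MT1G. Of the 7 genes, 2 were higher in A-485 and Dox than in Dox (MT2A and MTF1), 1 was lower (MT1G) and 4 did not pass the test, where 60% of all genes were called, 27.1% higher and 32.9% lower. Without Dox replicate 1, 5 were higher and 2 lower, against 44.2% of all genes higher, 43.6% lower and 87.8% called in all. MT2A had 1192, 1175 and 1158 CPM in A-485 and Dox, against 230.7, 72.68 and 66.89 CPM in Dox, where the first value is replicate 1. The groups did not overlap, at a log2 fold change of 3.25 ± 0.43 (edgeR adjusted p = 0.00012) and 4.07 ± 0.03 without that library.

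MT1E had 45.05, 46.55 and 47.08 CPM in A-485 and Dox, and 61.43, 15.43 and 13.82 CPM in Dox. Replicate 1 of Dox alone lay above the A-485 and Dox libraries. The log2 fold change was 0.62 ± 0.47 (edgeR adjusted p = 0.28) with it and 1.66 ± 0.05 without it. MT1X had 3.997, 3.455 and 3.556 CPM in A-485 and Dox and 3.668, 1.031 and 0.756 CPM in Dox, a log2 fold change of 1.05 ± 0.47 (edgeR adjusted p = 0.076) with replicate 1 and 2.04 ± 0.15 without it.

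MT1G had 2.670, 2.292 and 2.266 CPM in A-485 and Dox, below all Dox libraries at 20.58, 5.935 and 5.901 CPM. The log2 fold change was -2.16 ± 0.44 (edgeR adjusted p = 0.002) and -1.30 ± 0.10 without Dox replicate 1. MT1F, at 6.288, 6.346 and 5.682 CPM in A-485 and Dox and 15.42, 4.315 and 4.074 CPM in Dox, changed sign with that library. Its log2 fold change was -0.37 ± 0.43 (edgeR adjusted p = 0.47) with replicate 1 and 0.54 ± 0.09 without it (adjusted p = 1.2e-07).

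MTF1 had 20.17, 20.43 and 20.62 CPM in A-485 and Dox and 12.29, 17.39 and 17.39 CPM in Dox. The groups did not overlap, with a log2 fold change of 0.38 ± 0.12 (edgeR adjusted p = 0.02) and 0.23 ± 0.05 without Dox replicate 1. The call with all 12 libraries ended when A-485 and Dox replicate 2 (adjusted p = 0.052) or 3 (adjusted p = 0.055) was left out. SLC30A1 had 77.30, 77.03 and 77.25 CPM in A-485 and Dox and 39.81, 107.4 and 108.7 CPM in Dox. Its log2 fold change was -0.15 ± 0.29 (edgeR adjusted p = 0.68), with the sign flipping to 0.19 by library totals alone, and -0.49 ± 0.03 without Dox replicate 1 (adjusted p = 6.6e-24).

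Doxycycline alone gave no call among the 7 genes with all 12 libraries, and its direction for most of them rested on 1 library. No member was called in Dox against DMSO by edgeR, where 16.1% of all genes were called, and 0 had an unadjusted p under 0.05. DESeq2 called 0 members and limma-voom with sample weights called 6. The 16.1% does not apply to those methods, and over all alternatives 144 to 9080 genes were called. The share of all genes called by each method is not given, so these member counts are no result about the members. Without Dox replicate 1, edgeR called 5 lower and 1 higher, where 66% of all genes were called, 33.3% lower and 32.8% higher. The 5 lower genes were the 5 metallothioneins, with a median log2 fold change of -0.65 beside -0.00 for all genes, and the higher one was SLC30A1. With all 12 libraries the median of the 5 was 0.26, so the sign of the group's change turned with this library.

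In this comparison MT1G had 5.935 and 5.901 CPM in Dox replicates 2 and 3 and 20.58 in replicate 1, around the 11.24 to 11.78 CPM of DMSO. Its log2 fold change was -0.10 ± 0.41 (edgeR adjusted p = 0.88) with all libraries and -0.96 ± 0.07 without replicate 1. MT1X showed -0.03 ± 0.48 and -1.02 ± 0.18 without it, a value from 85 counts in 2 Dox libraries against 237 in 3 DMSO libraries. MT1E showed 0.57 ± 0.47 and -0.47 ± 0.06, and MT1F 0.26 ± 0.43 and -0.65 ± 0.09, in the same order of fits. MT2A moved least of the metallothioneins once replicate 1 was left out, with 0.68 ± 0.39 (edgeR adjusted p = 0.25) and then -0.14 ± 0.03 (adjusted p = 1.8e-05). SLC30A1 stood at -0.00 ± 0.29 and then 0.34 ± 0.03 (adjusted p = 1.7e-16), since replicates 2 and 3 lay above all DMSO libraries and replicate 1 below them. MTF1 was not called in either fit, at -0.10 ± 0.12 and 0.05 ± 0.05.

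Among cells with the inhibitor, MT1E, MT1X, MT2A, MT1F and SLC30A1 were lower with doxycycline than without it in the fit that leaves out Dox replicate 1, by less than 1 on the log2 scale. No member was called in A-485 and Dox against A-485 by edgeR with all 12 libraries, where 7.39% of all genes were called, and 0 had an unadjusted p under 0.05. DESeq2 called 0 members and limma-voom with sample weights 5. The 7.39% does not apply to those methods, and over all alternatives 481 to 9100 genes were called. Without each method's own share, these member counts are again no result about the members. Neither group holds Dox replicate 1, which enters only through the shared spread and scaling, and without it 5 members were lower and 0 higher, where 66% of all genes were called, 36.1% lower and 29.9% higher. MT1E fell by 0.67 ± 0.03 on the log2 scale, MT1X by 0.56 ± 0.08, MT2A by 0.24 ± 0.02, MT1F by 0.21 ± 0.07 and SLC30A1 by 0.08 ± 0.02. In each of these 5 genes all 3 A-485 and Dox libraries lay below all 3 A-485 libraries, as they did in 36.7% of all genes. MT1G (-0.05 ± 0.10) and MTF1 (-0.01 ± 0.04) were not called, and their libraries overlapped.

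The doxycycline change with the inhibitor minus the change without it was not called for any member by edgeR with all 12 libraries, where 2.58% of all genes were called. For this difference 0 members had an unadjusted p under 0.05, DESeq2 called 0 and limma-voom with sample weights 5. The 2.58% does not apply to those methods, and over all alternatives 122 to 6804 genes were called. The same limit holds for these member counts, as each method's own share is not given. Without Dox replicate 1, 5 of the 7 passed, 2 above 0 and 3 below it, where 48.4% of all genes did, 21.8% above and 26.6% below. The difference was 0.91 ± 0.13 on the log2 scale for MT1G (edgeR adjusted p = 2.7e-08) and -0.41 ± 0.04 for SLC30A1 (adjusted p = 1.5e-14). For MT1G, the mean level was 2.41 ± 0.226 CPM in A-485 and Dox and 2.49 ± 0.211 CPM in A-485 (SD, n = 3 each), beside 5.92 CPM in Dox replicates 2 and 3 and 11.5 ± 0.273 CPM in DMSO (n = 3). The differences for MT1F, MT1E and MT2A were 0.44 ± 0.11, -0.20 ± 0.06 and -0.10 ± 0.03.

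Against DMSO, cells with both compounds showed higher MT2A and lower MT1G, and these were the 2 members called, where 55.9% of all genes were called, 27.4% higher and 28.5% lower. Without Dox replicate 1, 4 were higher and 2 lower, against 46.5% of all genes higher, 43.9% lower and 90.4% called in all. This comparison shares its DMSO libraries with that of A-485. The log2 fold changes were 3.93 ± 0.44 for MT2A (edgeR adjusted p = 3.6e-05; 3.93 ± 0.02 without Dox replicate 1) and -2.25 ± 0.44 for MT1G (edgeR adjusted p = 0.0015; -2.25 ± 0.08 without it). MT1E (1.19 ± 0.47, edgeR adjusted p = 0.056), MT1X (1.02 ± 0.46, adjusted p = 0.088) and MTF1 (0.28 ± 0.12, adjusted p = 0.068) missed the threshold and passed it without Dox replicate 1. For each, all 3 libraries with both compounds lay above all DMSO libraries. The share of all genes without overlap was not counted for this comparison or for the other comparisons of cells with and without A-485. The lack of overlap is therefore no result about these members and does not stand in for a call. SLC30A1 was at -0.15 ± 0.29 and flipped to 0.20 by library totals alone, and MT1F was at -0.11 ± 0.43 and flipped to 0.24.

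**Figure D3:**
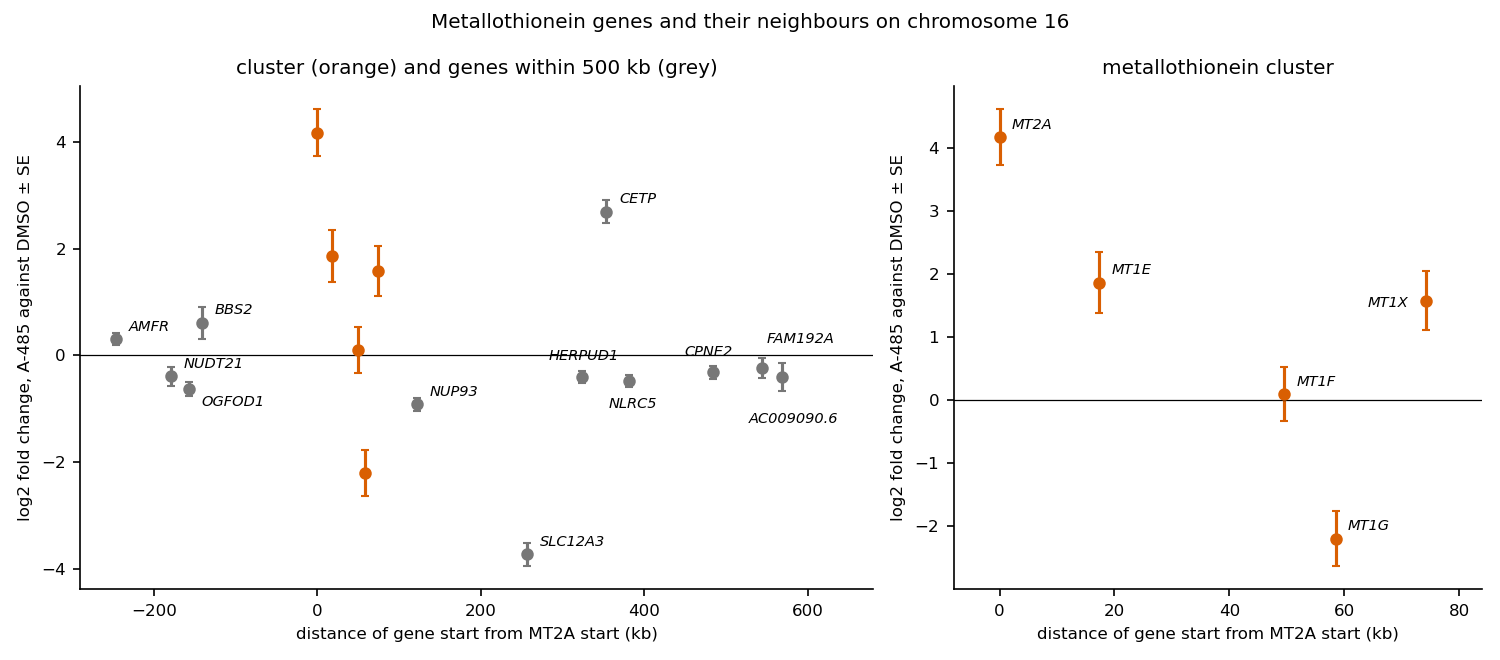
Log2 fold change (A-485 against DMSO, all 12 libraries, bars of 1 SE) against the distance of each gene's start from the MT2A start in kb, with the 5 metallothioneins in orange and 12 other measured genes within 500 kb in grey on the left, and the metallothioneins alone on the right. MT2A (4.17) and MT1G (-2.20), in the same row of genes, lie on opposite sides of 0.

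The 5 genes share 76 kb of chromosome 16, and their changes did not follow their order along it. In order along the chromosome from MT2A to MT1X, the A-485 log2 fold changes were 4.17, 1.86, 0.10, -2.20 and 1.58. The outermost measured genes, MT2A and MT1X, thus lay above 0 and MT1G, the only measured one on the minus strand, below it. Within 500 kb of the cluster, 12 other genes were measured, a span chosen after values were seen. With A-485, 2 of these were higher and 6 lower (3 and 9 without Dox replicate 1), where 26.3% of all genes were higher and 27.1% lower (46.6% and 43.7% without it), with a median of -0.40 and a range from -3.73 (SLC12A3, a sodium chloride cotransporter) to 2.69 (CETP, the cholesteryl ester transfer protein). The nearest by gene start on either side were BBS2 at 0.61 ± 0.30 (edgeR adjusted p = 0.12) and NUP93, a nuclear pore protein, at -0.92 ± 0.12 (adjusted p = 7.5e-05).

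Metallothionein genes share stretches of sequence, and reads from a shared stretch could be counted for another gene or left out. Of all 50-base stretches in a gene's transcripts, 18.3% in MT1X, 16.5% in MT1G, 7.10% in MT1E, 3.02% in MT2A and 1.22% in MT1F also occur in another gene. Of 100-base stretches, 11.3% in MT1X are shared, all with AC026461.1, which covers 18.1% of its exonic length, and 0 in the other 4. The labels do not state the read length, and the number of reads lost or shared was not measured. MT1G shares its stretches with other metallothioneins, among them MT1H, which was not measured, and MT1X and MT1E. The part of shared stretches in the changes of these genes was not tested.

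The genes whose pattern was most like each member's were found over 11 libraries, without Dox replicate 1, by the root mean square difference of centred log2 CPM among 9586 genes. For MT2A this was SERTAD1, at 0.141, with 90.8 CPM in A-485 and Dox, 88.3 in A-485, 5.28 in Dox and 6.18 in DMSO. SOX18 was nearest to MT1E at 0.111, with 47.6, 63.8, 14.3 and 19.9 CPM in the same order of groups. MAP3K6 was nearest to MT1X at 0.157, DHCR7 to MT1G at 0.101, NDUFB3 to MT1F at 0.073, BOD1L1 to MTF1 at 0.022 and RBMS1 to SLC30A1 at 0.028. Among the members, MT1E and MT1X were the most alike, at 0.228, and of the 9586 genes 28 were nearer to MT1E than MT1X was, and 2 nearer to MT1X than MT1E was. MT2A had its nearest member in MT1E at 1.21, and 92 genes were nearer. Likeness here covers all libraries under 2 compounds and is a description.

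**Figure D4:**
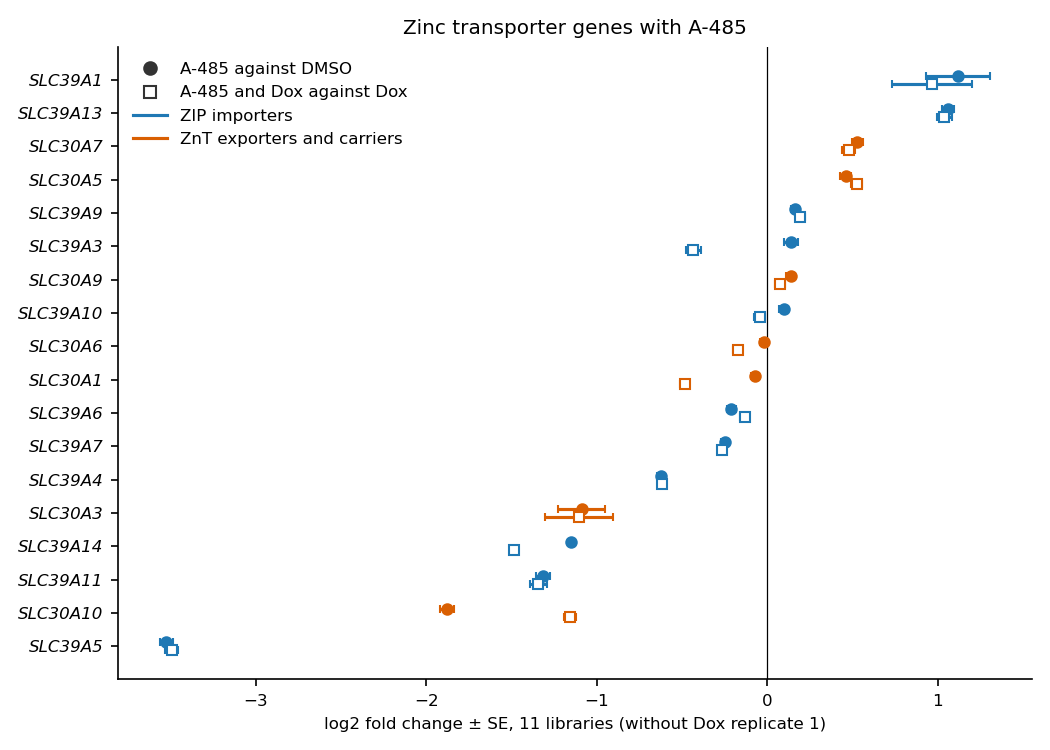
Log2 fold changes of 18 measured zinc transporter genes in A-485 against DMSO (filled circles) and in A-485 and Dox against Dox (open squares), with bars of 1 SE, from the 11 libraries without Dox replicate 1; ZIP importers are blue and ZnT genes orange. SLC39A5 lies lowest in both comparisons, and SLC30A1 lies at -0.07 and -0.49.

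Other genes that move zinc changed in both directions with A-485, as did all genes, of which 26.3% were higher and 27.1% lower with all 12 libraries and 46.6% and 43.7% without Dox replicate 1. Of 14 importers of the ZIP family 11 were measured, and 2 rose and 4 fell in A-485 against DMSO, with a median of -0.21 that became 0.14 by library totals alone. With Dox replicate 1 left out, 5 rose and 6 fell. SLC39A5, a zinc importer, had 7.60 ± 0.316 CPM in A-485 and 87.6 ± 2.49 CPM in DMSO (SD, n = 3 each), a log2 fold change of -3.53 ± 0.32 (edgeR adjusted p = 9.4e-06). With doxycycline in both groups it was at 8.76 ± 0.414 CPM in A-485 and Dox (n = 3) and 98.8 ± 1.30 CPM in Dox replicates 2 and 3. SLC39A11 fell by 1.32 ± 0.18, and SLC39A13, which moves zinc out of the secretory pathway into the cytosol, rose by 1.06 ± 0.28 to 62.0 ± 2.57 CPM in A-485, against 29.7 ± 1.76 in DMSO.

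Of the other 10 carriers of the ZnT family, 6 were measured, and 2 rose and 2 fell with A-485 (3 and 2 without Dox replicate 1). SLC30A7, which loads zinc into the secretory pathway, rose by 0.53 ± 0.10. SLC30A10, known chiefly as a manganese exporter, fell by 1.88 ± 0.25, at 12.1 ± 0.763 CPM in A-485 and 44.5 ± 0.256 CPM in DMSO. It was higher in A-485 and Dox, at 25.2 ± 0.379 CPM, than in A-485 (log2 fold change 1.06 ± 0.25, edgeR adjusted p = 0.032), a call lost by library totals alone (adjusted p = 0.11). Of the 14 further metallothionein genes and pseudogenes listed, 0 were measured.

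Of 9 measured copper genes, 1 rose and 3 fell with A-485, beside the same shares of all genes. Leaving out Dox replicate 1 gave 3 that rose and 5 that fell, and by library totals alone 4 rose and 0 fell. By that scaling 5502 of all 13511 genes were higher and 2439 lower, which also applies to the lists below. ATP7A, a copper exporter, rose by 1.28 ± 0.35 under the main scaling. The falls of ATP7B (-1.44 ± 0.37) and of the plasma copper protein CP (-1.53 ± 0.48) missed the threshold by library totals alone. Of 10 factors known to act at metallothionein promoters, 5 rose and 1 fell with A-485, where 53.3% of all genes were called. In the fit without Dox replicate 1, 8 rose and 2 fell, where 90.3% were called, and by library totals alone 6 rose and 0 fell. NR3C1, the glucocorticoid receptor, rose by 0.83 ± 0.17. Of 10 targets of metal, heat and oxidant stress, 0 rose and 5 fell with A-485, 1 rose and 7 fell without Dox replicate 1, and by library totals alone 2 rose and 3 fell. Among the 5 that fell with all libraries were NQO1 (-1.56 ± 0.18) and HMOX1, haem oxygenase 1 (-1.15 ± 0.11). Of 7 measured glucocorticoid targets, 2 rose and 3 fell (2 and 4 without Dox replicate 1), among them KLF9 (2.25 ± 0.26) and SGK1 (-2.62 ± 0.23). In Dox against DMSO, where 16.1% of all genes were called, 0 of 11 ZIP genes and 1 of 6 ZnT genes were called, that gene lower. Once Dox replicate 1 was left out, where 66% of all genes were called, 4 ZIP genes were higher and 3 lower, and 2 ZnT genes were higher and 1 lower. The stress targets had 2 higher and 4 lower with all 12 libraries, and 5 higher and 5 lower without that library. The glucocorticoid targets had 3 higher and 2 lower, and 4 higher and 3 lower without it.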

How the data were processed

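RNA of 12 HepG2 libraries, 3 in each of 4 groups taken from the sample titles, was measured. The authors deposited raw counts, whole reads per gene, made with STAR 2.6.0a and HTSeq 0.10.0 on GRCh38, per the submitters' processing notes. No source used here states the strand setting of the counting, and antisense reads may not be separated. Every gene of the table exceeds 1 CPM in at least 2 libraries. Rows that name no gene were left out of totals and tests: ambiguous (9.10 to 12.3% of reads), multimapping (2.96 to 3.76%), outside genes (3.30 to 4.09%) and unmapped (1.80 to 8.93%).

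From these counts, R 4.3.3 with edgeR 4.0.16 was run on all 13511 genes: TMM scaling, a robust glmQLFit, glmQLFTest, 1 coefficient per group, Benjamini-Hochberg adjustment over all genes, calls at 0.05. SEs were derived from the fold change and F statistic. Alternatives were DESeq2 1.42.0, library totals alone, no filter on low counts, at least 10 CPM in 3 libraries, limma-voom (limma 3.58.1) with sample weights, a fit of the compared groups alone, a replicate block, and leaving out each library. The fit was also run on simulated counts with a biological coefficient of variation of 1.52% and no library that stood apart. That run does not cover the fit with Dox replicate 1, where this coefficient was 20.7%. TPM used GENCODE 29 exonic lengths; all 13511 identifiers matched. Promoters are from RefSeq, GRCh38.p14. From each list up to 2 genes per direction and comparison could be named, by fold change among genes called with and without Dox replicate 1 at a mean log2 CPM of 3 or more. Members and lists were chosen with earlier results of these data known. At 46600324 counts or more per library, counting error is largest for MT1X, MT1F and MT1G. Reads carry no molecular identifiers.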

Additional observations from a re-analysis of the deposited data

Results flagged for a closer look

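For 5 of the 7 genes the doxycycline effect differed between cells with and without A-485, by a test of the difference itself in the edgeR fit without Dox replicate 1. The differences, with A-485 minus without it, were -0.20 for MT1E (adjusted p = 0.0075), 0.44 for MT1F (adjusted p = 0.0007), 0.91 for MT1G (adjusted p = 2.7e-08), -0.10 for MT2A (adjusted p = 0.011) and -0.41 for SLC30A1 (adjusted p = 1.5e-14) on the log2 scale. In the edgeR fit of all 12 libraries none of the 5 passed, and 48.4% of all genes passed without that library.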

How the results depend on the processing

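Of the values of single members under alternatives, 665 kept their direction and side of the threshold, 64 passed only under the alternative, 5 passed no longer, 33 moved and 12 reversed. The fit with no filter on low counts was the main fit over again, since the main filter removed none of the 13511 genes. It gave 42 of the 665 and tells nothing about stability. The calls of MT2A and MT1G with A-485 against DMSO held with each of the 12 libraries left out, at 4.16 to 4.19 and -2.25 to -2.14 on the log2 scale. In Dox against DMSO the direction reversed without Dox replicate 1 and with limma-voom sample weights for MT1E (-0.47 in both), MT1F (-0.65 in both), MT2A (-0.14 in both) and SLC30A1 (0.34 in both). With each library left out in turn these ran from -0.47 to 0.92, -0.65 to 0.57, -0.14 to 0.98 and -0.22 to 0.34 in that order of genes. MT1F also reversed in A-485 and Dox against Dox (0.54 in both) and in the difference of the doxycycline effects (0.44 without that library and 0.42 with sample weights), with ranges over libraries left out of -0.68 to 0.54 and -0.78 to 0.44. MT1X was not called for that difference with any library left out, and its sign was not stable either, at -0.905 to 0.454.

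Members called in Dox against DMSO were 0, with 6 under sample weights and 0 to 6 with 1 library left out. In A-485 and Dox against Dox they were 3, with 5 by library totals alone, 7 under sample weights and 2 to 7 with 1 library left out. For both compounds against A-485 they were 0, with 5 under sample weights, 5 with the compared groups alone and 0 to 5 with 1 library left out. In A-485 and Dox against DMSO they were 2, with 5 by library totals alone, 6 under sample weights, 6 with the compared groups alone and 2 to 6 with 1 library left out, among them 4 without Dox replicate 3. In A-485 against DMSO they were 4, and 3 to 6 with 1 library left out, the lowest without DMSO replicate 1 or 3. For the difference of the doxycycline effects they were 0, with 5 under sample weights and 0 to 5 with 1 library left out. By library totals alone, 5686 of all genes were higher and 2793 lower in A-485 and Dox against Dox. In A-485 and Dox against DMSO these were 5573 and 2591. The share of all genes called under sample weights or with the compared groups alone is not given. Member counts under those settings are therefore no result about the members. The causes of these changes in member counts were not tested. MT1X lost its call in A-485 against DMSO without DMSO replicate 1 or 3 (adjusted p = 0.057 for each). MTF1 lost its call in A-485 and Dox against Dox without A-485 and Dox replicate 2 or 3 and with the compared groups alone (0.38, adjusted p = 0.13). In A-485 and Dox against DMSO, MT1E passed without Dox replicate 2 (adjusted p = 0.035) or 3 (0.026), and MT1X without Dox replicate 3 (0.039). Depth limits MT1X, MT1F and MT1G most, with 85, 399 and 563 counts in Dox replicates 2 and 3 together.

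Genes called among all 13511 ranged from 5258 to 12279 around 7203 for A-485 against DMSO, 4999 to 11901 around 8107 for A-485 and Dox against Dox, 144 to 9080 around 2174 for Dox against DMSO, 481 to 9100 around 999 for both compounds against the inhibitor alone, 5492 to 12279 around 7552 for A-485 and Dox against DMSO, and 122 to 6804 around 348 for the difference. Replicate numbers did not pair the libraries: same-numbered libraries had correlations of deviations of -0.246 to 0.113. With the replicate block, edgeR called 1571 genes in Dox against DMSO, 626 for both compounds against A-485, and 138 for the difference, and no member's call changed. The filter of at least 10 CPM in 3 libraries left 5 of the 7 members to test, leaving out MT1F and MT1X. The fit of the compared groups alone was not run for the difference.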
